A study of Homo sapiens with 18 samples.

Results

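A set of 10 genes of the heat shock response was followed in all 12 RNA-seq libraries of a human ovarian carcinoma line and its cisplatin-resistant derivative. They were taken by symbol from the 23622 genes of the count table: the transcription factor HSF1 and the chaperones or co-chaperones HSPA1A, HSPA1B, HSPA8, HSPH1, HSP90AA1, HSPB1, DNAJB1, BAG3 and HSPE1. All 10 were listed, and 9 of them were among the 15760 genes with enough counts to test. HSPA1A was not.

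A2780 is an established ovarian carcinoma line, and Acis (A2780cis) was derived from it and received 1 µM cisplatin every 3 passages. The 4 RNA-seq groups were A2780 without treatment, A2780 after 3 h in 200 µM cisplatin, Acis without treatment, and Acis after the same exposure, with 3 libraries each. ATAC-seq, which maps open chromatin, gave 1 peak list for each of the same 4 conditions, and the XR-seq repair maps were not analysed here. The Acis control cells had thus met cisplatin in culture before, whereas no such exposure is described for A2780. Each line is represented by 1 culture lineage, so a difference between them is a difference between these lineages. The RNA-seq wells were seeded in triplicate for each condition, and the p-values below measure the spread between these wells, which may be technical.

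The heat shock response is a conserved transcriptional program that protects cells when proteins misfold. HSF1 is held inactive by chaperones in unstressed cells and, once released, forms trimers that bind inverted repeats of the bases GAA in the promoters of chaperone genes. Much of this control acts on the HSF1 protein, so the level of its mRNA is not a measure of its activity. Inducible HSP70 (HSPA1A and HSPA1B), HSP40 (DNAJB1) and BAG3 are textbook targets of HSF1, while HSPA8 is the HSP70 that cells carry at all times.

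Total gene counts lay between 4130644 and 5072216 per library. Counts of the 3 A2780 control libraries differed from each other by less than sampling noise (ratios of 0.642 to 0.857 to the spread that counting alone gives), and pairs in the other groups reached 2.19. Merging the closest pair of each group was therefore run as an alternative. As to the label of the cells, the keratin gene KRT18 was at 25.5 normalized counts in A2780 control and 143 in Acis control. The keratin gene KRT8 went the other way, at 15.6 and 4.05, as did EPCAM, at 3.55 and 0.733. The ovarian markers PAX8, WT1 and MUC16 and the epithelial cadherin CDH1 had no entry in the table used. Defining markers of leukocytes (PTPRC, CD3E) and endothelium (PECAM1, VWF) had no entry either, and the summed leukocyte list reached at most 6.56 normalized counts in any library. The summed fibroblast list (collagens COL1A1 and COL3A1, and DCN) ranged from 2595 to 2743 in untreated and 2054 to 2268 in treated A2780 cells, and from 3885 to 4017 in untreated and 3380 to 3541 in treated Acis cells. Its genes went opposite ways between the untreated lines, from 843 to 16.4 for COL1A1 and 46.2 to 3.65 for DCN but from 1801 to 3942 for COL3A1. Their part in the results was not tested. In these bulk RNA samples, fewer cells of a type and less RNA per cell cannot be told apart.

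The promoters were read first, because the motif bound by heat shock factors is the feature by which these genes are usually grouped. A RefSeq window (GRCh38.p14) of 250 bases before to 50 bases after the transcript start was searched on both strands for a pair of GAA units in inverted orientation, written GAANNTTC or TTCNNGAA, and for a run of 3 alternating units in which both of these overlap. For HSPH1 the same window was taken from the hg38 genome at the start of its MANE Select transcript (the transcript chosen as the gene's representative by RefSeq and Ensembl), since the RefSeq window lay 484 bases away. The result for HSF1 is not reported here. Of the other 9 genes, 7 held at least 1 paired motif, and 13.5% of all 35116 RefSeq windows did. The 3-unit motif lay in 3 of them, HSPA8 (2 copies), HSPH1 (1) and HSP90AA1 (1), and in 0.49% of all windows. No match was found in the windows of BAG3 and HSPE1. These counts use 1 window per gene, at its MANE Select start, while all RefSeq windows include other starts of a gene. The RefSeq windows of HSPH1 (start chr13:31162388) and of HSP90AA1 at chr14:102139749 held no match. For DNAJB1, the window at chr19:14529271 held none and that at chr19:14517937 held 1 paired motif. A match is a string of letters and says nothing of binding.

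The 250 bases before the start are shown for the near-identical pair HSPA1A and HSPA1B, for HSPA8 with its 3-unit motifs, and for DNAJB1, which was called in both lines below, with the motifs in capitals and each strand written 5′ to 3′. The positions on GRCh38 are chr6:31815293-31815542 (plus strand) for HSPA1A, chr6:31827488-31827737 (plus strand) for HSPA1B, chr11:123062137-123062386 (minus strand) for HSPA8 and chr19:14518398-14518647 (minus strand) for DNAJB1.
HSPA1A: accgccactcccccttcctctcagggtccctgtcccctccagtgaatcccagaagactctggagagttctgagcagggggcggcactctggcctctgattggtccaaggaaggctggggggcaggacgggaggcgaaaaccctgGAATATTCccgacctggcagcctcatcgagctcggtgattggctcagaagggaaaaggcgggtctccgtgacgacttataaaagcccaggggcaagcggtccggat
HSPA1B: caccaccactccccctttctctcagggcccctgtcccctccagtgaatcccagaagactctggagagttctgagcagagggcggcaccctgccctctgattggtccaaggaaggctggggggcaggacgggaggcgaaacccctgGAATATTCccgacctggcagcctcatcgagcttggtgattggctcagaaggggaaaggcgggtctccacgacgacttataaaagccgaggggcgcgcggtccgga
HSPA8: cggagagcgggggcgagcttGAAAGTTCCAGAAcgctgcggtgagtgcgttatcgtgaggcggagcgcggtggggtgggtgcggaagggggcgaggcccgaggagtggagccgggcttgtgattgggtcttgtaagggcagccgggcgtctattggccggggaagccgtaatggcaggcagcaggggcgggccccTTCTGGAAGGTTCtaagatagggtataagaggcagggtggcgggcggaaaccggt
DNAJB1: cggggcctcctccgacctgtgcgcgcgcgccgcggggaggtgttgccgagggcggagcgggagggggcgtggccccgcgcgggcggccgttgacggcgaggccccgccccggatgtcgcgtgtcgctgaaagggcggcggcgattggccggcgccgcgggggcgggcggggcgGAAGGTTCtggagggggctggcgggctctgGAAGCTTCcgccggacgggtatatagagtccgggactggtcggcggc
HSPA1A and HSPA1B carried the same paired motif at almost the same place, from -106 to -99 and from -105 to -98 relative to the start. Over the whole windows 277 aligned bases were identical and 22 differed (92.6% identity). The 4 paired motifs of HSPA8 lay between -230 and -43, overlapping within its 3-unit copies, and the 2 of DNAJB1 lay between -77 and -40. HSPB1 had 1 paired motif, from -182 to -175.

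HSF1 itself (ENSG00000185122, chr8:144291591-144314720, hg38) had the largest difference between the lines of the 9 members tested. In A2780 control it was at 598, 594 and 574 normalized counts (library-scaled by TMM), and in A2780 cisplatin at 668, 629 and 637. In Acis control it was at 880, 787 and 779, and in Acis cisplatin at 836, 829 and 875. Every Acis library stood above every A2780 library. The difference between the untreated lines was 0.47 on the log2 scale (SE 0.05, adjusted p = 2.47e-09, edgeR's quasi-likelihood test, n = 3 against 3), or 38.5% more, and between the treated lines 0.39 (SE 0.05, adjusted p = 2.66e-08, edgeR). Cisplatin in A2780 raised HSF1 by 0.13 (SE 0.05, adjusted p = 0.0296, edgeR), but DESeq2 did not call it (adjusted p = 0.168) and it passed in only some of the fits that leave out 1 library. In Acis the change was 0.05 (95% interval -0.04 to 0.14, adjusted p = 0.471, edgeR). The 3 genes whose log2 levels followed HSF1 most closely over the 12 libraries were MAP3K6, NBEAL2 and CRELD2, each with a Pearson correlation of 0.991 across points that share the same 4 groups.

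Cisplatin in A2780 raised 6 of the 9 members tested (HSF1, HSPA1B, HSPB1, DNAJB1, BAG3 and HSPE1) and lowered none by edgeR, against 21.2% of all genes tested that rose and 28.2% that fell. The same 6 had treated libraries that all lay above the control libraries, which 26.2% of genes tested showed (31.1% lay wholly below). The median change of the 9 members was 0.14 on the log2 scale and that of all genes tested was -0.01. No member reached a log2 change of 1, which 4.14% of genes passed upward and 1.48% downward. DESeq2 called 3 of the 6, HSPA1B, HSPB1 and DNAJB1, and 2024 genes higher in all, against 3347 by edgeR. Other facts about the table move with these values. Genes of 1 to 10 kb, among them HSPA1B, HSPA8, HSPB1 and HSPE1, had a median change of 0.22, and 43.8% were called higher. Genes of 10 to 100 kb, the other 5 members, had -0.03 and 17.4%. These classes use the whole annotated span of a gene, with all its starts. The MANE Select starts of DNAJB1 (chr19:14518397) and HSP90AA1 (chr14:102087044) lie far inside their spans. Counted from there, both genes would belong to the 1 to 10 kb class. Scaling to total counts in place of TMM moved the median of all genes from -0.01 to 0.10. The share of calls that were higher went from 42.9% to 63.4%. All 9 members were then called higher, as were 5302 of the 15760 genes tested (3347 with TMM).

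In Acis the same exposure raised 2 of the 9 members, HSPA1B and DNAJB1, and lowered none, against 9.35% of all genes that rose and 12.4% that fell. The treated libraries lay wholly above the controls for 3 members (16.9% of all genes) and wholly below for 1 (17.4%). The median change was 0.04 for the members and 0.01 for all genes tested. DESeq2 called DNAJB1 only, and 537 genes higher in all, against 1474 by edgeR. By whole span, the 4 members of 1 to 10 kb belong to a class with a median of 0.09 and 14.9% called higher. The other 5 belong to one with 0.02 and 9.84%. From their MANE Select starts, DNAJB1 and HSP90AA1 would again join the shorter class. With total-count scaling the medians of all genes and of the members were 0.07 and 0.10, and 62.4% of all calls were higher against 42.9%. Called higher were then 3 members and 2346 of the 15760 genes tested (1474 with TMM).

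**Figure D1:**
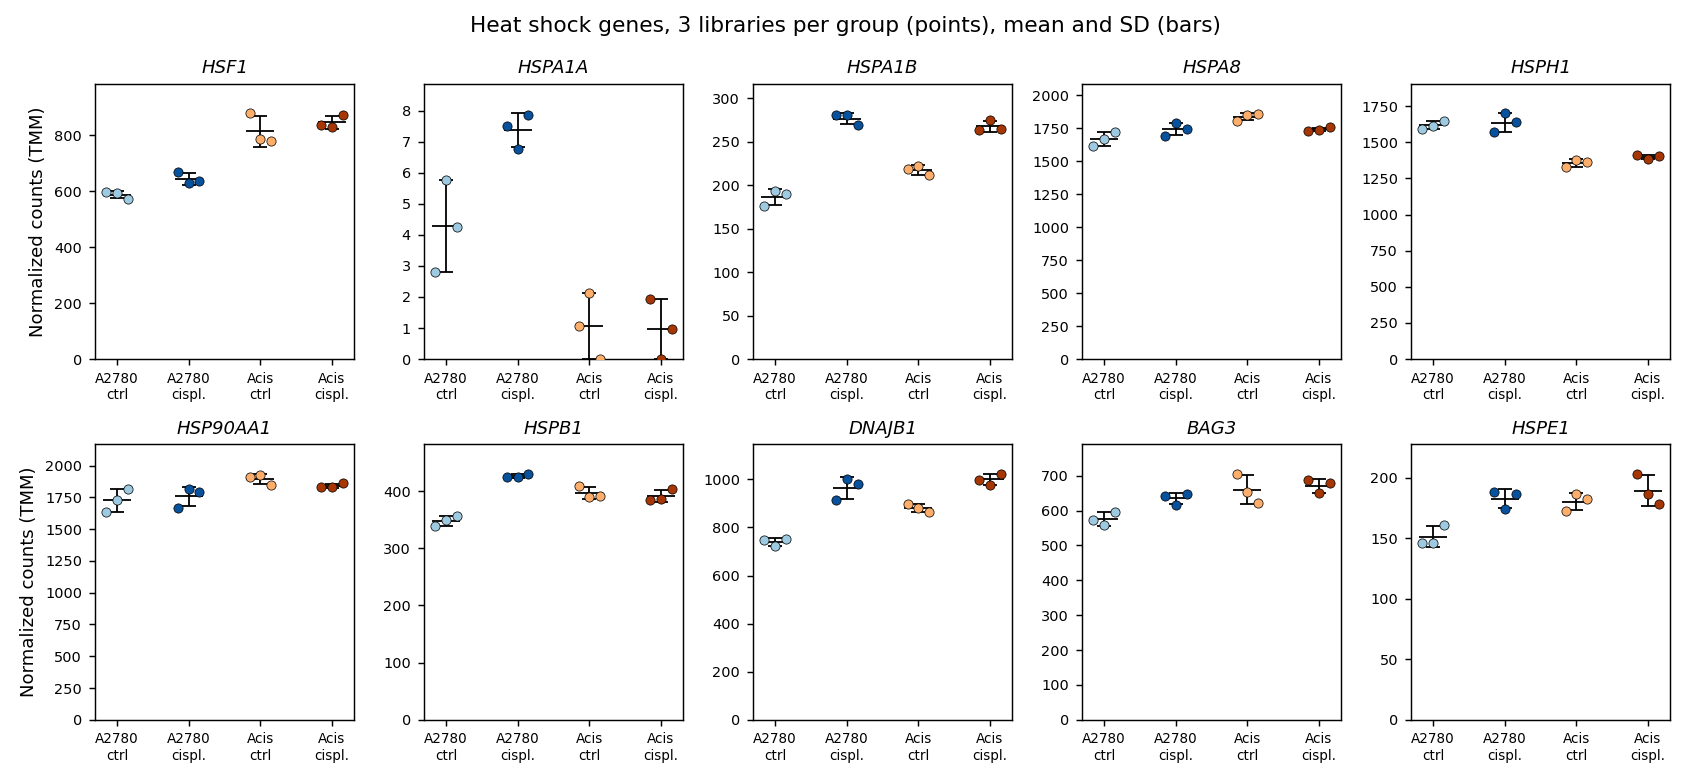
TMM-normalized counts (vertical axes, each from 0) of the 10 heat shock genes in A2780 and Acis, control and cisplatin; points are the 3 libraries of a group, and bars give mean and SD. HSF1 lies higher in all 6 Acis libraries than in all 6 A2780 libraries, HSPA1B and DNAJB1 lie higher after cisplatin in both lines, and HSPA1A is under 10 counts throughout.

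Inducible HSP70 is made from a pair of intronless genes in the major histocompatibility region of chromosome 6, which encode almost the same protein. HSPA1B (ENSG00000204388, chr6:31827738-31830254) was at 176, 193 and 190 normalized counts in A2780 control and 280, 280 and 269 in A2780 cisplatin. It was at 218, 222 and 211 in Acis control and 263, 275 and 264 in Acis cisplatin. No treated library overlapped the controls of its line. HSPA1B had the largest cisplatin effect of the tested members in both lines, 0.57 in A2780 (SE 0.06, adjusted p = 3.58e-08, edgeR, 48.4% more) and 0.30 in Acis (SE 0.06, adjusted p = 0.0012, edgeR, 23.1% more), the latter with an adjusted p of 0.0583 by DESeq2. The effect was 0.27 lower in Acis on the log2 scale, which did not pass (95% interval of the difference -0.45 to -0.09, adjusted p = 0.0662, edgeR). Without treatment it was 0.22 higher in Acis (SE 0.07, adjusted p = 0.0168, edgeR, and 0.1 by DESeq2), while the treated lines differed by -0.05 (95% interval -0.16 to 0.07, adjusted p = 0.56, edgeR).

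HSPA1A (ENSG00000204389, chr6:31815543-31817946) carried hardly any counts. Raw counts were 3, 6 and 4 in A2780 control, 8, 7 and 8 in A2780 cisplatin, 1, 2 and 0 in Acis control, and 2, 0 and 1 in Acis cisplatin. The sums were 13 (95% Poisson interval 6.92 to 22.2) in A2780 control, 23 (14.6 to 34.5) in A2780 cisplatin, and 3 (0.619 to 8.77) in each of the Acis groups. These intervals cover counting error only. The treated A2780 libraries all stood above the controls, though the intervals of the sums overlap, and the Acis groups could not be told apart at this depth. The split between the pair is uncertain. Of the stretches of 75 bases (the read length) in HSPA1A, 1716 of 2326 (73.8%) occur again in the genome, all of them in HSPA1B, where they are 70.2% of the stretches, so a read from either gene often matches both. In addition, 36.6% of the HSPA1B exon length overlaps another annotated gene on its strand, ENSG00000285565. With both counts summed the effects were 0.57 in A2780 (adjusted p = 2.87e-08, edgeR) and 0.30 in Acis, as for HSPA1B alone.

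HSPA8 (HSC70, ENSG00000109971, chr11:123057489-123063230), the constitutive HSP70 that folds new proteins and uncoats clathrin vesicles, was the most abundant member per length. Its level in A2780 control was 737 ± 22.1 normalized counts per kb of transcript (SD, n = 3). By library it was at 1620, 1669 and 1720 normalized counts in untreated A2780, 1696, 1788 and 1747 in treated A2780, 1808, 1852 and 1857 in untreated Acis, and 1731, 1739 and 1758 in treated Acis. The A2780 groups overlap, and in Acis all treated libraries lay below the controls. Neither cisplatin change passed the test, 0.06 in A2780 (adjusted p = 0.0909) and -0.08 in Acis (adjusted p = 0.077, both edgeR). Their difference did, at -0.14 (SE 0.04, adjusted p = 0.024, edgeR), and this call was lost in DESeq2 (adjusted p = 0.0695), without the filter on low counts (0.0755) and in 6 fits that leave out 1 library (0.0511 to 0.0812). The untreated lines differed by 0.14 (SE 0.03, adjusted p = 0.000338, edgeR), with Acis higher, and the treated lines by -0.00052 (95% interval -0.06 to 0.06). Closest to HSPA8 over the 12 libraries, points that share the same 4 groups, were HSP90AB1 (Pearson correlation 0.975), MYL12B (0.969) and RACK1 (0.943). Raw HSPA8 counts lay between 1612 and 1848, and those of HSP90AB1 averaged 1874. What library depth adds to these correlations was not tested.

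HSPA8 also shows a limit of these counts. Reads with the same start were removed as duplicates, so a transcript can give at most about 1 single-end read per base, and HSPA8 was at 0.712 to 0.816 counts per transcript base. HSP90AA1 (0.502 to 0.59) and HSPB1 (0.43 to 0.583) came next. Raw HSPA8 counts summed to 5085 and 5436 in A2780 (control, cisplatin) and to 5074 and 5362 in Acis. Those of HSP90AA1 were 5258 in A2780 control and 5230 in Acis control. Total counts per library were 4462393 to 5072216 in A2780 control and 4130644 to 4443470 in Acis control. How far this limit and depth shape the differences in HSPA8 and HSP90AA1 between the lines was not tested. In all, 8 of the 10 members averaged 0.2 counts per base or more, against 16.6% of 12104 tested genes with a MANE Select transcript. Undoing this saturation under even coverage, an alternative added after the data were seen, moved the values of the abundant members. In A2780 the cisplatin change became 0.19 for HSPA8, 0.44 for HSPB1 and 0.51 for DNAJB1, and in Acis 0.29 for DNAJB1, while HSPA8 and HSP90AA1 went from -0.08 and -0.04 to 0.02 each. For HSPA1B, at no more than 0.119 counts per base, the cisplatin change stayed near the deposited value, at 0.60 and 0.32. That density divides by the whole transcript, although 70.2% of the 75-base stretches of HSPA1B occur again in the genome. Its density may therefore be understated, and with it the saturation and the count of members above 0.2. Between the untreated lines, undoing saturation left HSPA8 at 0.14 and gave 0.13 for HSP90AA1.

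HSPH1 (HSP110, ENSG00000120694, chr13:31134973-31162388), which releases ADP from HSP70 and holds unfolded proteins, was the only member tested that was called lower in Acis. It was at 1592, 1612 and 1649 normalized counts in A2780 control, 1569, 1699 and 1641 in A2780 cisplatin, 1327, 1380 and 1364 in Acis control, and 1410, 1384 and 1405 in Acis cisplatin. All 6 Acis libraries lay below all 6 A2780 libraries. The difference was -0.25 without treatment (SE 0.03, adjusted p = 2.76e-07, edgeR) and -0.22 after cisplatin (SE 0.03, adjusted p = 1.09e-06, edgeR), and both became larger, -0.32 and -0.27, once saturation was undone. Cisplatin changed it by 0.02 in A2780 (95% interval -0.05 to 0.08) and 0.04 in Acis (-0.02 to 0.11), neither of which passed.

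HSP90AA1 (HSP90 alpha, ENSG00000080824, chr14:102080742-102139699), the stress-regulated cytosolic HSP90 that keeps kinases and steroid receptors in shape, was second in level at 535 ± 28 normalized counts per kb in A2780 control (SD, n = 3). It was at 1638, 1726 and 1819 normalized counts in A2780 control, 1669, 1814 and 1790 in A2780 cisplatin, 1911, 1924 and 1848 in Acis control, and 1829, 1828 and 1862 in Acis cisplatin. Control and treated libraries overlapped in both lines. Cisplatin changed it by 0.03 in A2780 (95% interval -0.04 to 0.10, adjusted p = 0.582) and -0.04 in Acis (-0.11 to 0.03, adjusted p = 0.468, both edgeR). It was 0.14 higher in untreated Acis (SE 0.04, adjusted p = 0.00228, edgeR), a call lost without the first A2780 control library (0.08, adjusted p = 0.0625).

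HSPB1 (HSP27, ENSG00000106211, chr7:76302673-76304295), a small heat shock protein that binds unfolding proteins without using ATP, had the largest difference in response between the lines of the 9 members tested, though its interval (-0.45 to -0.17) overlaps that of HSPA1B (-0.45 to -0.09). It was at 339, 349 and 356 normalized counts in A2780 control and 425, 424 and 430 in A2780 cisplatin. In Acis control it was at 408, 390 and 391, and in Acis cisplatin at 385, 386 and 404. The treated A2780 libraries stood clear of their controls and the Acis groups overlapped. HSPB1 rose by 0.29 in A2780 (SE 0.05, adjusted p = 2.49e-05, edgeR, 22.5% more) and changed by -0.02 in Acis (95% interval -0.12 to 0.08, adjusted p = 0.884, edgeR). The difference of these effects was -0.31 (SE 0.07, adjusted p = 0.00328, edgeR, and 0.041 by DESeq2). The order of the lines turned with treatment, from 0.19 higher in Acis control (SE 0.05, adjusted p = 0.00513, edgeR, and 0.0578 by DESeq2) to -0.12 after cisplatin, where the adjusted p was 0.0505 by edgeR and the libraries did not overlap.

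DNAJB1 (HSP40, ENSG00000132002, chr19:14514769-14560391), the J protein that delivers clients to HSP70 and stimulates its ATPase, rose in both lines. It was at 746, 721 and 751 normalized counts in A2780 control and 915, 1002 and 981 in A2780 cisplatin, and at 898, 882 and 865 in Acis control and 999, 977 and 1023 in Acis cisplatin. In both lines every treated library lay above every control. The rise was 0.39 in A2780 (SE 0.04, adjusted p = 1.12e-08, edgeR, 30.6% more) and 0.18 in Acis (SE 0.04, adjusted p = 0.00131, edgeR, 13.4% more), and DESeq2 called both. The effect was smaller in Acis by 0.20 (SE 0.06, adjusted p = 0.0122, edgeR, and 0.0536 by DESeq2). The lines differed by 0.25 without treatment (SE 0.04, adjusted p = 8.17e-06, edgeR) and by 0.05 after it (95% interval -0.02 to 0.13), so that the treated A2780 libraries overlapped those of Acis.

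BAG3 (ENSG00000151929, chr10:119651380-119677819), an HSP70 exchange factor that routes clients to autophagy, was at 572, 559 and 597 normalized counts in A2780 control, 641, 617 and 646 in A2780 cisplatin, 705, 653 and 622 in Acis control, and 687, 649 and 679 in Acis cisplatin. The A2780 groups did not overlap and the Acis groups did. Its rise of 0.14 in A2780 (SE 0.05, adjusted p = 0.0161, edgeR) was not called by DESeq2 (adjusted p = 0.138), and the change in Acis was 0.02 (95% interval -0.07 to 0.12). BAG3 was 0.20 higher in untreated Acis (SE 0.05, adjusted p = 0.000981, edgeR).

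HSPE1 (HSP10, ENSG00000115541, chr2:197500140-197503449), the lid of the mitochondrial chaperonin, shares a bidirectional promoter region with HSPD1, which encodes HSP60, the barrel. HSPE1 was at 146, 146 and 161 normalized counts in A2780 control, 188, 174 and 186 in A2780 cisplatin, 172, 186 and 182 in Acis control, and 203, 186 and 178 in Acis cisplatin. The treated A2780 libraries stood above their controls, and the Acis groups overlapped. It rose by 0.28 in A2780 (SE 0.08, adjusted p = 0.00587, edgeR, and 0.0847 by DESeq2) and changed by 0.07 in Acis (95% interval -0.08 to 0.22). HSPD1 was at 1091 ± 40.1 normalized counts in A2780 control and 1089 ± 26.9 after cisplatin (SD, n = 3), a change of -0.0013 (adjusted p = 0.991, edgeR). The genes span 3310 bp for HSPE1 and 30154 bp for HSPD1, and 10.5% of the HSPE1 exon length is shared with the readthrough gene HSPE1-MOB4. Both were higher in untreated Acis, HSPE1 by 0.26 (adjusted p = 0.0119) and HSPD1 by 0.17 (adjusted p = 0.000123, both edgeR).

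**Figure D2:**
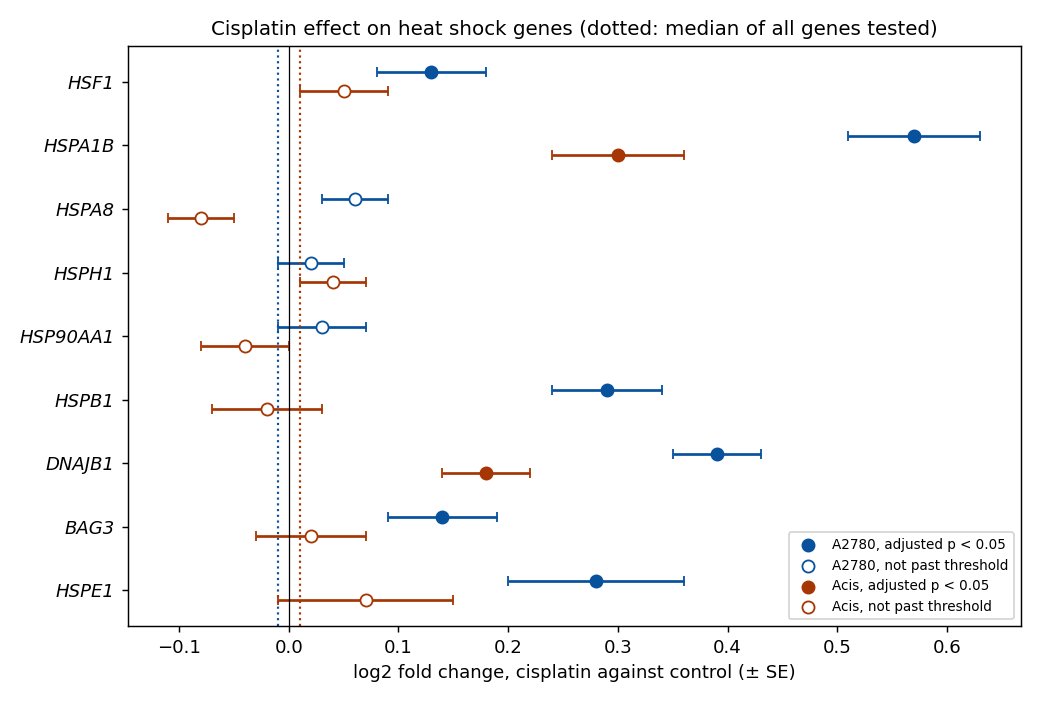
Log2 fold change of cisplatin against control (horizontal axis, ± SE) for the 9 members tested in A2780 (blue) and Acis (red-brown); filled points passed an adjusted p of 0.05, and dotted lines mark the medians of all genes tested, -0.01 and 0.01. In A2780 6 members are filled and in Acis 2, HSPA1B and DNAJB1.

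Without treatment, 8 of the 9 members were higher in Acis and 1, HSPH1, was lower, against 28.2% and 30.6% of all genes tested. The 3 libraries of each line were fully apart for all 9, in the direction that 30.9% (higher) and 33.3% (lower) of genes tested showed. The median difference was 0.20 for the members and -0.01 for all genes, and no member reached a log2 difference of 1, which 6.99% of genes passed upward and 12.2% downward. DESeq2 called 5 of the 8, leaving out HSPA1B, HSPB1 and HSPE1, and edgeR without the first A2780 control library also called 5, leaving out HSPA1B, HSP90AA1 and HSPE1. After cisplatin, edgeR called HSF1 higher and HSPH1 lower, against 31.8% and 31.2% of all genes, and the median over the members was 0.05. The treated libraries of the lines did not overlap for 3 members that lay higher in Acis (33.4% of all genes) and 2 that lay lower (33.3%). Levels per length in untreated A2780 ran in the order HSPA8, HSP90AA1, HSPB1, DNAJB1, HSPH1, HSF1, HSPE1, BAG3, HSPA1B and HSPA1A, from 737 to 1.78 normalized counts per kb. The levels of HSPA1B and HSPA1A may be understated and their places are uncertain. Of their 75-base stretches, 70.2% and 73.8% occur again in the genome, and such reads may not be counted. HSF1 (276 ± 5.99) and HSPE1 (271 ± 15.4) did not differ beyond their SD (n = 3). In untreated Acis HSPB1 was at 510 ± 13.6, DNAJB1 at 393 ± 7.36 and HSF1 at 382 ± 26.2 per kb, the last pair again within their SD.

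**Figure D3:**
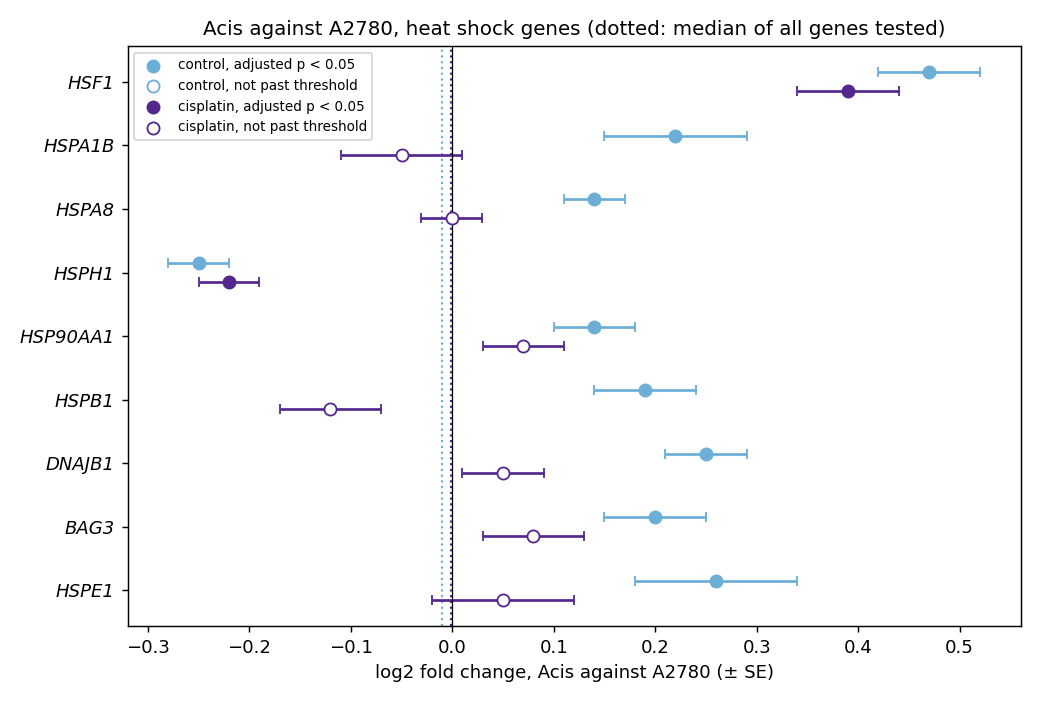
Log2 fold change of Acis against A2780 (horizontal axis, ± SE) for the 9 members tested, without treatment (light blue) and after cisplatin (purple); filled points passed an adjusted p of 0.05, and dotted lines mark the medians of all genes tested. All 9 points are filled without treatment and only HSF1 and HSPH1 after cisplatin.

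The cisplatin effect itself differed between the lines for 3 members, HSPB1, DNAJB1 and HSPA8, all with the lower effect in Acis, against 5.48% of all genes tested in that direction and 13.4% in the other. The median difference was -0.14 over the members and 0.03 over all genes tested. For the other 6 the difference did not pass, with intervals of -0.45 to -0.09 for HSPA1B, -0.42 to 0.01 for HSPE1, -0.25 to 0.02 for BAG3, -0.21 to 0.05 for HSF1, -0.17 to 0.03 for HSP90AA1 and -0.06 to 0.12 for HSPH1. The comparisons share libraries, since the effect in A2780 and the difference between untreated lines both use the A2780 controls. For the members called in A2780, the values side by side were 0.57 (cisplatin in A2780) and 0.22 (Acis against A2780, untreated) for HSPA1B, 0.39 and 0.25 for DNAJB1, 0.29 and 0.19 for HSPB1, 0.28 and 0.26 for HSPE1, 0.14 and 0.20 for BAG3, and 0.13 and 0.47 for HSF1.

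A wider set of 78 chaperone and heat shock genes, grouped by family, gave 72 genes in the table and 68 tested. In A2780 cisplatin raised 25 of them and lowered 12 (21.2% and 28.2% of all genes tested), with a median of 0.06. In Acis it raised 11 and lowered 8 (9.35% and 12.4% of all genes), with a median of -0.01. Between the untreated lines 36 were higher in Acis and 7 lower (28.2% and 30.6% of all genes), with a median of 0.14. The family counts below are to be read against these shares. Of 11 other HSP70 genes 2 rose and 3 fell in A2780, near the shares of all genes (21.2% and 28.2%). HSPA6, a strictly inducible HSP70, went in A2780 from 15.9, 10.6 and 12.8 normalized counts to 32.8, 32.9 and 27.5 (log2 change 1.24, SE 0.23, adjusted p = 6.02e-05, edgeR) and in Acis from 7.43, 9.58 and 11.4 to 13.4, 13.8 and 7.85 (0.31, SE 0.32, adjusted p = 0.624, edgeR). The difference of these effects did not pass (-0.93, adjusted p = 0.149, edgeR). HSPA2, a testis-enriched HSP70, rose in A2780 from 1.59 ± 2.01 to 16.7 ± 1.84 normalized counts, and in Acis from 3.24 ± 0.984 to 22.1 ± 5.64 (SD, n = 3), log2 changes of 3.25 and 2.71 from a base of few counts. HSPA4L, an HSP110-type gene like HSPH1, fell from 570 ± 22.8 to 387 ± 7.85 in A2780 (-0.55, adjusted p = 3.48e-10, edgeR), and was at 1133 ± 16.4 and 1089 ± 18.9 in Acis. HYOU1, its counterpart in the endoplasmic reticulum, fell in both lines, by 0.21 and 0.11.

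Among the heat shock factors and their regulators, 3 of 4 tested genes rose and 1 fell in A2780. HSF2, the factor that can form mixed trimers with HSF1, was at 237, 242 and 264 normalized counts in A2780 control and 186, 198 and 199 after cisplatin (-0.35, SE 0.08, adjusted p = 0.000588, edgeR). In Acis it was at 508, 546 and 517 and then at 418, 472 and 406 (-0.28, SE 0.06, adjusted p = 0.000485, edgeR). Acis was 1.09 higher than A2780 without treatment (SE 0.06, adjusted p = 1.85e-14, edgeR), a larger line difference than that of any member tested. HSBP1, which binds the trimer domain of HSF1 and restrains it, rose by 0.35 in A2780 and 0.19 in Acis. The other HSP90 genes went from 1 of 3 lower in A2780 (HSP90B1, the form in the endoplasmic reticulum, -0.25) to 3 of 3 lower in Acis (HSP90AB1 -0.11, HSP90B1 -0.12, TRAP1 -0.11). All 3 were higher in untreated Acis than in untreated A2780.

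The chaperonin list (HSPD1 and the 8 TRiC subunits) had few calls with cisplatin, with 1 of 9 higher in A2780 (TCP1, 0.22) and 1 of 9 lower in Acis (CCT3, -0.12), but 7 of 9 were higher in untreated Acis than in untreated A2780 (28.2% of all genes). Of the other J proteins, 5 of 13 rose and 3 fell in A2780 (21.2% and 28.2% of all genes), and 3 rose in Acis (9.35%). DNAJB4, the close relative of DNAJB1, rose in A2780 from 138 ± 5.33 to 246 ± 9.57 normalized counts (0.84, adjusted p = 1.25e-09, edgeR) and in Acis from 88.7 ± 10.8 to 140 ± 12 (0.67, adjusted p = 2.07e-05, edgeR), and DNAJB5 rose by 0.71 in A2780. Among 8 other exchange factors 3 rose and 1 fell in A2780 (21.2% and 28.2% of all genes), and BAG1, which shares its HSP70-binding domain with BAG3, rose by 0.41 in A2780 and 0.20 in Acis. The mitochondrial exchange factor GRPEL1 rose by 0.31 in A2780. Of 11 HSP90 co-chaperones 5 rose and 3 fell in A2780 (again 21.2% and 28.2% of all genes), among the latter FKBP5 (-0.28, and -0.16 in Acis) and CHORDC1, which fell by 0.30 in A2780 and rose by 0.16 in Acis, a difference of effects that passed (0.46, adjusted p = 4.72e-05, edgeR). Of the 2 tested among the other small heat shock proteins, HSPB6 rose in A2780 from 5.41 ± 3.66 to 10.9 ± 1.26 normalized counts (SD, n = 3, adjusted p = 0.0381, edgeR).

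Of 7 other genes known as HSF1 targets, 5 rose in A2780 and 2 in Acis (21.2% and 9.35% of all genes tested), with medians of 0.30 and 0.10. IER5, an early-response gene whose product helps to activate HSF1, rose from 384 ± 9.03 to 867 ± 51.8 normalized counts in A2780 (1.18, SE 0.06, adjusted p = 4.14e-15, edgeR) and from 488 ± 36.8 to 652 ± 36.7 in Acis (0.42, SE 0.06, adjusted p = 4.4e-06, edgeR). The effect was 0.76 lower in Acis (adjusted p = 5.1e-07, edgeR). DEDD2 rose by 0.41 in A2780 and 0.35 in Acis.

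**Figure D4:**
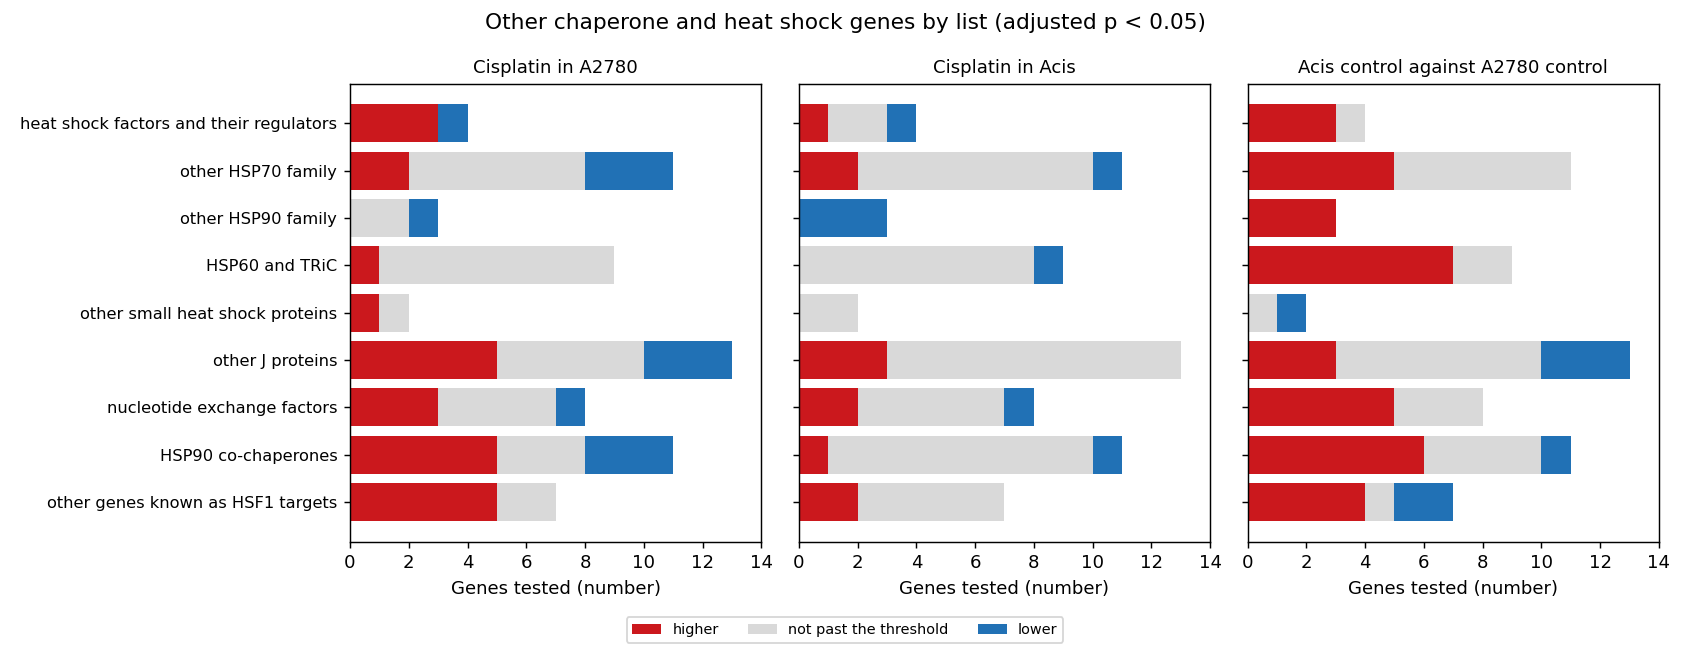
Number of tested genes (horizontal axes) in 9 lists of chaperone and heat shock genes other than the members, called higher (red), lower (blue) or not past an adjusted p of 0.05 (grey), for cisplatin in A2780, cisplatin in Acis and untreated Acis against untreated A2780. Of the 7 other HSF1 targets 5 are red in A2780 and 2 in Acis, and 7 of the 9 HSP60 and TRiC genes are red between the lines.

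Open chromatin at the starts of the 10 genes was read from the 4 peak lists, in which the height of a peak is its fold enrichment over local background. Each condition had 1 list, called on 3 control or 2 cisplatin replicates, so no error can be given. Per the paper, a region entered a list only if its peak overlapped between all replicates of the condition. A gene without a listed peak may therefore still have had one in part of the replicates. Within 1000 bp of the start, 8 members had a peak in all 4 lists. HSPA1B had among the highest values of the members, with 19-fold and 13.4-fold in the A2780 lists, control and cisplatin, and 20.6-fold and 22.9-fold in those of Acis. Its neighbour HSPA1A had a peak in the A2780 cisplatin list only, of 6.5-fold at chr6:31815794-31817120, inside the gene. Reads of this pair can be hard to place for the reason given above. HSP90AA1 had a peak of 7.21-fold in A2780 control and of 14 in Acis cisplatin, and none in the other lists. The peak was 1109 bp wide in A2780 control and 232 bp in Acis cisplatin, with summits 20 and 18 bp from the start. Whether the absences of HSPA1A and HSP90AA1 peaks come from the overlap rule was not tested.

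The peak shared by HSPE1 and HSPD1 was at 19.2, 12.8, 20.1 and 20.7-fold in the A2780 lists (control, cisplatin) and then the Acis lists (control, cisplatin), and that of HSPH1 at 18.7, 13.8, 19.6 and 17.6. In the same order DNAJB1 was at 15.5, 9.77, 16.1 and 18, HSPA8 at 14.8, 9.45, 13.4 and 14.4, and BAG3 at 12.1, 10.5, 16.2 and 16.2. These 6 genes, HSPA1B included, had their lowest value in the A2780 cisplatin list, whose median over all peaks was also the lowest (8.79, against 9.96 in A2780 control, 12.8 in Acis control and 11 in Acis cisplatin). HSPB1 was at 6.73, 7.13, 10.5 and 11.6, with summits 919 to 975 bp inside the gene, and HSF1 at 5.54, 8.17, 7.72 and 7.5. Both had their lowest value in A2780 control. Of the 6 members whose RNA edgeR called higher in A2780, HSPA1B, DNAJB1, BAG3 and HSPE1 had lower peaks there in the cisplatin list. HSPB1 and HSF1 had higher ones. By the share of its list below the peak, BAG3 was at 61.9% in A2780 control and 62.6% in A2780 cisplatin. The others kept the same directions by that share, for example HSPA1B at 89.1% and 78.4% and HSF1 at 15.3% and 44.7%.

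**Figure D5:**
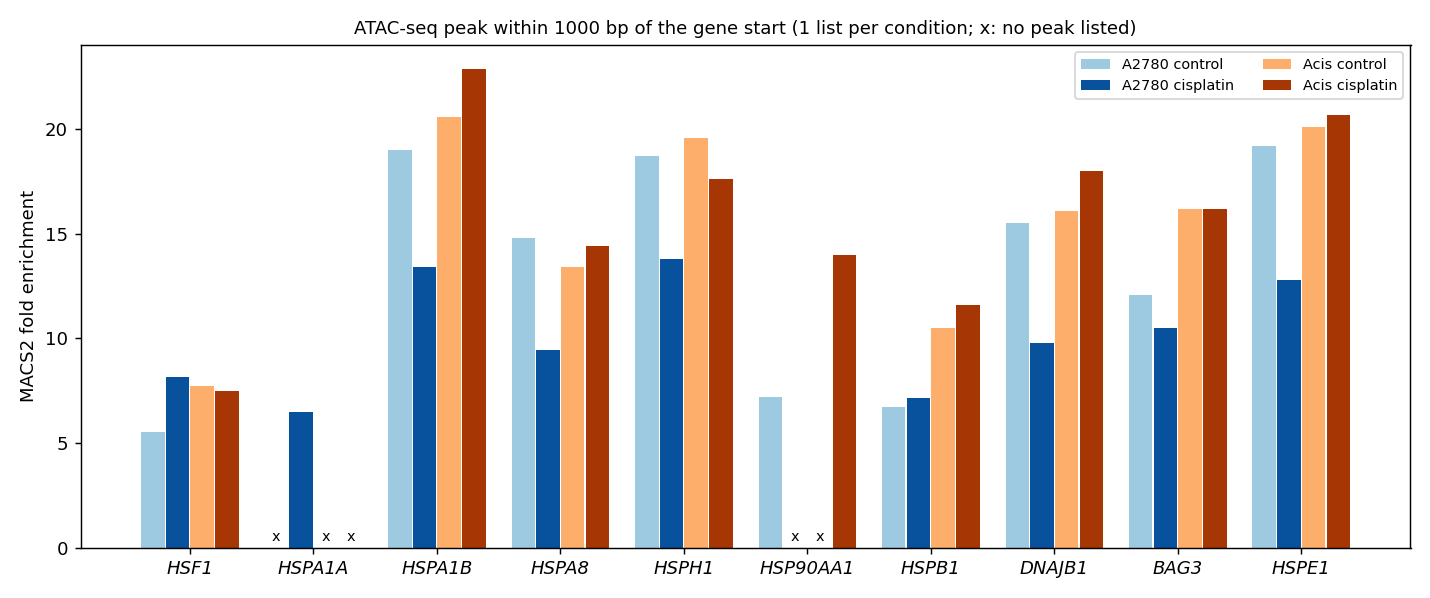
MACS2 fold enrichment (vertical axis, from 0) of the strongest ATAC-seq peak within 1000 bp of each member's start in the 4 peak lists; x marks a gene with no listed peak. HSPA1B reaches 22.9 in Acis cisplatin, and 6 genes have their lowest bar in A2780 cisplatin.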

How the data were processed

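RNA-seq was measured in 12 libraries and ATAC-seq peaks in 4 conditions. The authors made the gene counts from ribosomal RNA-depleted, stranded, 75-base single-end libraries: per the labels and the methods of the study, reads were aligned with STAR 2.7.3 to hg38, duplicates were removed with Picard, and reads were counted per gene on the reverse strand with HTSeq 0.11.1. The counts were deposited raw. The ATAC-seq peaks were called by the authors with MACS2 after cutadapt 1.15 and Bowtie2 2.4.1, and the deposited lists give a fold enrichment ratio and a −log10 q-value per peak. Duplicate removal limits the counts of short abundant transcripts, and unplaceable reads limit HSPA1A and HSPA1B.

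Here the counts were scaled by TMM and tested with edgeR's quasi-likelihood test over all 12 libraries with 4 group means, after edgeR's default filter on low counts left 15760 genes. Benjamini-Hochberg adjustment ran over all of them, and an adjusted p under 0.05 was called. Intervals reach 1.96 SE to each side. Peaks were taken by overlap of at least 1 bp with 1000 bp around the start. Gene models came from GENCODE 44, to which 23513 of the table's identifiers matched. The gene members and lists were chosen with earlier results of these data known, and the rule named all members, the called list genes with the largest changes, HSPD1, HSPA6 and HSF2. HSPA2, HSPB6, HSP90AB1, TRAP1 and CCT3 were named after their values were seen. Same-numbered libraries did not pair (correlations of deviations from -0.205 to 0.282), so no block was used. Alternatives were DESeq2 with its own size factors, other scalings, no filter, merged replicates, a replicate block and leaving out each library.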

Additional observations from a re-analysis of the deposited data

Results flagged for a closer look

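A group of 3 heat shock genes had cisplatin effects that differed between the lines by a test of the difference itself (edgeR's quasi-likelihood test, 3 libraries a group). For HSPB1 the effect in Acis was lower than that in A2780 by a log2 difference of -0.31 (adjusted p = 0.00328), for DNAJB1 by -0.20 (adjusted p = 0.0122) and for HSPA8 by -0.14 (adjusted p = 0.024). DESeq2 gave adjusted p-values of 0.041, 0.0536 and 0.0695 for the same differences. The call for HSPA8 was lost in 6 of the fits without 1 library (A2780 control replicates 1 and 2, A2780 cisplatin replicates 2 and 3, Acis cisplatin replicates 1 and 2), with adjusted p-values of 0.0511 to 0.0812, and over all such fits its difference lay between -0.16 and -0.12. Without the filter on low counts HSPA8 was lost too (-0.12, adjusted p = 0.0755). Merged replicates lost HSPA8 (adjusted p = 0.186) and DNAJB1 (0.0954). Undoing the saturation of the counts, without a test, gave -0.40 for HSPB1, -0.22 for DNAJB1 and -0.17 for HSPA8.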

How the results depend on the processing

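With 3 wells per group and abundant transcripts near 1 read per base, small changes are the weak point of these values. DESeq2 called fewer members: 3 higher in A2780, 1 higher in Acis, 5 higher in untreated Acis against A2780, and 1 with a lower effect in Acis (HSPB1). Over all genes, calls fell too, from 3347 to 2024 higher in A2780 and from 1474 to 537 in Acis. Calls of a lower effect in Acis fell from 863 to 294 genes. Merging the closest replicates left 1 member with such a lower effect, also HSPB1, and 496 genes in all. With DESeq2's size factors in edgeR, HSPA8 became 1 member lower in Acis after cisplatin (-0.09, adjusted p = 0.0239). In treated Acis against treated A2780, HSPB1 joined HSPH1 as 2 members lower under those size factors, total counts or a fit of the groups compared alone. Counting promoters with the paired motif gives 7 members in place of 3. Without 1 library at a time, edgeR called 4 to 6 members higher in A2780 and 2 in Acis. It called 5 to 8 higher in untreated Acis (5 without A2780 control replicate 1). In treated Acis 1 to 2 were higher and 1 to 2 lower, and 2 to 3 had a lower effect in Acis. Over all genes these fits called 2879 to 3451 higher in A2780, 1036 to 1560 in Acis and 3975 to 4543 in untreated Acis. In treated Acis 4795 to 4989 genes were higher and 4678 to 5264 lower, and 525 to 926 had a lower effect in Acis. A block on replicate number, a pairing the libraries did not show, left every count of members as it was (6 and 2 higher with cisplatin in A2780 and Acis).

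HSF1 and BAG3 in A2780 were also lost without the filter on low counts (adjusted p = 0.114 and 0.0745) and with merged replicates (0.0513 and 0.0686). HSF1 was lost without each A2780 control library in turn and without A2780 cisplatin replicates 1 or 3 (0.0503 to 0.13), and BAG3 without A2780 control replicates 1 or 2 or cisplatin replicate 3 (0.0621 to 0.0991). Between untreated lines, HSPA1B was lost without A2780 control replicate 1 (0.127) or Acis control replicates 1 or 2 (0.0579 and 0.0768), HSPE1 without A2780 control replicates 1 or 2 or Acis control replicate 2 (0.0635 to 0.0657), HSPB1 without Acis control replicate 1 (0.0592), and HSPA1B and HSPE1 with merged replicates (0.0576 and 0.0878). Calls were gained for HSPA8 in A2780 without A2780 cisplatin replicate 1 (0.08, adjusted p = 0.0411) and in a fit of the groups compared alone (0.09, adjusted p = 0.0214, 7 members higher in place of 6), and between treated lines for HSP90AA1 without A2780 cisplatin replicate 2 (0.09, adjusted p = 0.0455) and for HSPB1 without any single control library or Acis cisplatin replicate 3 (0.0317 to 0.0493). Total counts gained a call for the difference of effects of HSPA1B (-0.33, adjusted p = 0.0192), and so did DESeq2's size factors (0.0478).

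Changes near 0 turned sign. In A2780 this was so without the filter for HSPH1 (-0.01) and HSP90AA1 (-0.0024) and with merged replicates (-0.0015 and -0.01), and without single libraries they ranged from -0.01 to 0.05 and from -0.02 to 0.06. In Acis total-count scaling gave HSP90AA1 0.01 and HSPB1 0.04, merged replicates gave BAG3 -0.0047 and DESeq2 gave it -0.0014. Without single libraries HSPB1 ranged from -0.04 to 0.0026 and BAG3 from -0.02 to 0.07. Between treated lines total counts gave DNAJB1 -0.0048 and HSPE1 -0.01, HSPA8 was at 0.01 without the filter and 0.01 with merged replicates, and single-library ranges were -0.02 to 0.02 for HSPA8 and -0.0021 to 0.1 for HSPE1. For HSPH1 the difference of effects was -0.03 under total counts and -0.00022 to 0.06 without single libraries. Undoing saturation turned HSPA8 to 0.02, HSP90AA1 to 0.02 and HSPB1 to 0.04 in Acis. The causes were not tested.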
